A study of Rattus norvegicus with 8 samples.

Results

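The estrogen receptors and a set of pituitary genes known to respond to estrogen were followed in the pituitary of nursing rats. The 9 named genes were Esr1 and Esr2, the receptors, Pgr and Greb1, which estrogen induces in many tissues, the peptide genes Gal, Vip and Nmu, and the peptide receptors Galr1 and Cckbr. Members were taken as the non-control spots whose gene name in the scanner files equals one of these symbols. This gave 8 of the 26240 genes on the array, on 14 of 30367 probes and 32 of 42877 spots. Greb1 was matched by no spot and was not analysed here. All 8 samples were whole pituitaries of lactating Wistar dams at postpartum day 7, with the agent given as control for 4 samples and as TCDD for 4. TCDD is the dioxin that acts through AhR, the aryl hydrocarbon receptor. Its dose and the day of exposure, and the age of the dams, are not stated in what was used here. RNA of each sample was read on its own single-colour Agilent array.

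Estrogen enters the cell and binds ESR1 or ESR2, which then attach to DNA at estrogen response elements and recruit coactivators or corepressors. In the pituitary ESR1 is the main form, and estrogen is known to stimulate lactotrophs, the prolactin cells, to raise their galanin, and to induce the progesterone receptor in gonadotrophs. AhR bound to dioxin is known from other tissues to interfere with estrogen signalling, and this comparison asks whether that gene set differed between exposed and control mothers.

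None of the members passed the test. Of the 5 members bright enough to be tested (Esr1, Pgr, Gal, Vip and Nmu), 0 were higher and 0 lower at an adjusted p of 0.05 (limma, Benjamini-Hochberg over 17350 genes), against 0.0634% of all genes. At an unadjusted p under 0.05 there were also 0 of 5, against 10.7% of all genes, and 0 of 5 had groups that did not overlap, against 7.1%. The estimates were 3 above 0 and 2 below it, with a median log2 change (TCDD minus control) of 0.30, where the median over all genes was 0.02. Esr2, Galr1 and Cckbr were too dim to test and are described by their signal.

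Probes are shown for the members on which the results turn, each 60 bases long, as the scanner files give them. Each printed probe has at least 1 reading frame with no stop codon. They are in lower case. The values of Esr1 and Nmu come from the printed probe, while Gal and Cckbr are shown by 1 of their 2 probes, and for both the other probe is the one described first below.
Esr1: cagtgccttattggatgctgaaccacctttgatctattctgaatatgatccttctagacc
Gal: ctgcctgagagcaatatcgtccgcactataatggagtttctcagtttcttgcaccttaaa
Nmu: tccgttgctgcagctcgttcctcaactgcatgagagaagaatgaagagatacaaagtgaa
Cckbr: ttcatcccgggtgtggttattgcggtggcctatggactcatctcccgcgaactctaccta
On rn4, the build in the file headers, these lie at chr1:35660062-35660121 on the + strand (Esr1), chr1:205937849-205937908 on the - strand (Gal), chr14:34136495-34136554 on the + strand (Nmu) and chr1:163165347-163165406 on the + strand (Cckbr). The exon of each probe was not determined here.

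The arrays were of like depth. The 75th percentile of signal lay between 765 and 932 scanner units, 71.1% to 73.9% of spots were well above background, and 0 spots were flagged as saturated. Cyp1a1, the cytochrome P450 gene that AhR induces, was above background on 4 TCDD arrays and on 0 control arrays. Over all genes 11 passed, 7 higher and 4 lower, a split that was 4 and 4 with median centring and 0 and 1 with quantile normalization. Markers of the tissue were present: all 3 lactotroph and all 5 gonadotroph markers were well above background on every array. Those of the posterior lobe were present too (7 of 9 tested). The 4 erythrocyte markers had 4 estimates above 0 (median 1.04) of which 0 passed. Their summed signal spanned 241 to 444 times the array's 75th percentile in controls and 351 to 535 after TCDD. Relative to their mean over the 8 arrays, they stood at 0.21 on control array 4 and at -0.79 to -0.67 on the other controls. Posterior lobe, stroma and folliculostellate markers were lowest of the 8 arrays on control array 4, at -0.57, -0.50 and -0.37. The part of these markers in the values below was not tested. Slide 1 held the control samples and slide 2 the TCDD samples. Slide and agent therefore cannot be told apart in these results. In whole tissue, fewer cells of a type and less RNA per cell cannot be told apart either.

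Esr1, the receptor through which most estrogen effects in the pituitary run, gave only a dim signal. Its values, here and for the other tested members as log2 signal relative to the array's 75th percentile, were -5.57, -5.72, -5.71 and -6.19 on control arrays 1 to 4 and -5.42, -5.64, -5.69 and -5.25 on TCDD arrays 1 to 4. The groups overlapped, with control array 4 lowest and TCDD arrays 1 and 4 highest. The control mean was -5.80 ± 0.27 (SD, n = 4) and the TCDD mean -5.50 ± 0.20 (SD, n = 4), a log2 change of 0.30 (SE 0.15, 95% confidence interval -0.05 to 0.65; limma, adjusted p = 0.55; exact two-sided permutation p = 0.14).

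The single Esr1 probe sits on 10 spots of each array, which shows how the dim signal is built. On the other 7 arrays 9 or 10 of the 10 spots were well above background. On control array 4 only 1 was, and there the spots ran from 7.46 to 24.0 scanner units with a median of 10.1, while the lowest signal counted as well above background on that array was 12.1. Without control array 4 the change was 0.17 (adjusted p = 0.63), with array weights 0.20, and with normexp background correction and quantile normalization it was 0.04 (adjusted p = 0.77). Normexp was run with an offset of 50.

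Esr2, the second estrogen receptor, was not well above background on any array with any of its 3 probes. Their signals lay between 2.21 and 6.24 scanner units, below the 10.4 to 12.1 at which the lowest spots well above background stood. In scanner units 1 of the probes read 3.19 to 5.19 in controls and 2.60 to 2.98 with TCDD, and the groups overlapped once each array was scaled. No level or change is given for it at this signal.

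Pgr, the progesterone receptor and a classical estrogen-induced gene, had the smallest standard error of the tested members, though it was read by 1 spot per array. It stood at -2.88, -3.02, -3.10 and -2.95 on the control arrays and at -3.35, -3.06, -3.06 and -3.09 on the TCDD arrays. TCDD array 1 was the lowest of the 8, while the other 3 TCDD arrays lay just above control array 3. The means of -2.99 ± 0.10 (SD, n = 4) and -3.14 ± 0.14 (SD, n = 4) differed by -0.15 (SE 0.09, adjusted p = 0.61 by limma; exact two-sided permutation p = 0.14). The 95% confidence interval ran from -0.35 to 0.05, which as a ratio of TCDD to control is 0.786 to 1.04. Its 1 probe lies at chr8:5845716-5845775 on the + strand of rn4. Without TCDD array 1 the change was -0.08 (adjusted p = 0.78).

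**Figure D1:**
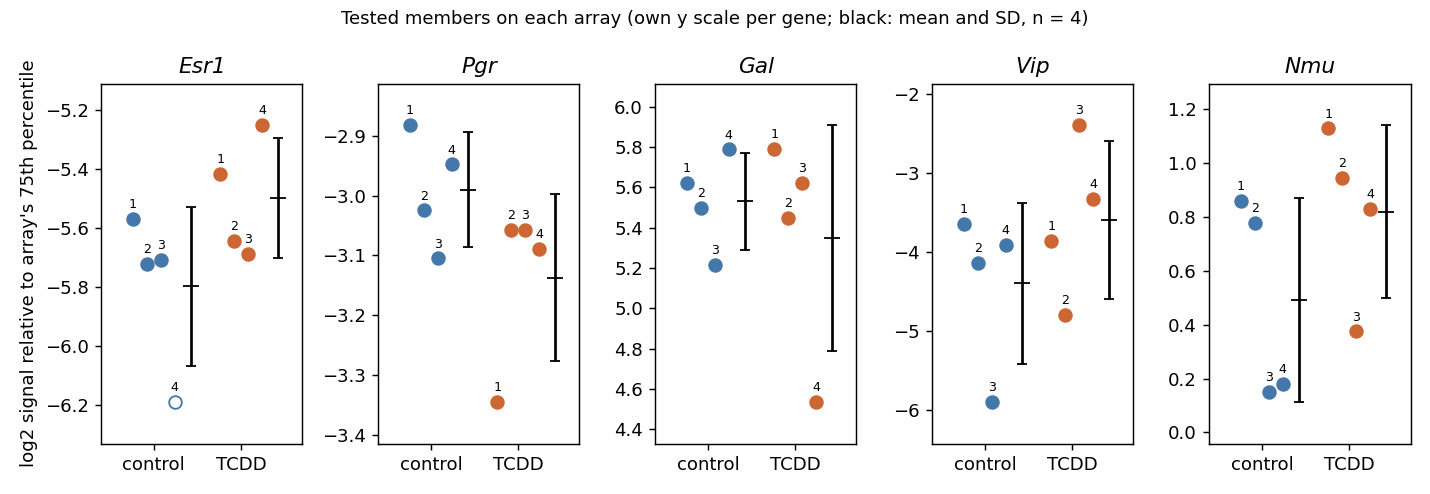
Log2 signal relative to the array's 75th percentile for the 5 tested members, 1 point per array with its replicate number, controls in blue and TCDD in orange, with the mean and SD (n = 4) in black and a separate y scale for each gene. The open point marks Esr1 on control array 4 (-6.19), where the probe was not well above background, and in every panel the groups overlap.

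Gal encodes galanin, a peptide that lactotrophs make and that promotes their growth and prolactin release. It was at 5.62, 5.50, 5.22 and 5.79 on the control arrays and at 5.79, 5.45, 5.62 and 4.53 on the TCDD arrays. TCDD array 1 was level with the highest control array and TCDD arrays 2 and 3 lay inside the control range. TCDD array 4 stood below every other array, at a mean signal of 20787 scanner units where the others were at 31941 or more. The means were 5.53 ± 0.24 (SD, n = 4) and 5.35 ± 0.56 (SD, n = 4), a change of -0.18 (SE 0.27, 95% confidence interval -0.80 to 0.43; limma, adjusted p = 0.87; exact two-sided permutation p = 0.66). Without TCDD array 4 the sign turned, to 0.09 (adjusted p = 0.88). It was -0.33 without TCDD array 1, -0.29 without control array 3, -0.10 without control array 4 and -0.08 with array weights.

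The low value of Gal on that array was seen with both of its probes. The probe used, at chr1:205936430-205936489 on the - strand, has 10 spots, and the printed probe has 1 spot on the same messenger RNA. The probe used exceeded the printed one by 0.55 to 0.77 on every array. Both placed TCDD array 4 lowest, the second at 3.97 against 4.45 to 5.14 on the others. By the second probe the change was -0.10 (SE 0.26, adjusted p = 0.94). Prl, the prolactin gene, was also lowest on TCDD array 4, at 8.02 against 8.13 to 8.25, and its change was -0.0026 (SE 0.07, adjusted p = 0.995 by limma). The 3 lactotroph markers together, Prl among them, were not low there. Relative to their mean over the 8 arrays they stood at 0.07 on TCDD array 4, in a range of -0.12 to 0.12. The part of lactotrophs in the Gal value was not tested.

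Vip encodes vasoactive intestinal peptide, a releaser of prolactin that estrogen raises in the rat pituitary. Its values were -3.64, -4.14, -5.90 and -3.91 on the control arrays and -3.87, -4.79, -2.40 and -3.33 on the TCDD arrays. Control array 3 was the lowest and TCDD array 3 the highest, a ratio of 10.8 in scanner signal, and the remaining 6 arrays were mixed. The means of -4.40 ± 1.02 (SD, n = 4) and -3.60 ± 1.00 (SD, n = 4) gave a change of 0.80 (SE 0.62, 95% confidence interval -0.62 to 2.22; limma, adjusted p = 0.71; exact two-sided permutation p = 0.34). Its standard error was larger than that of 99.2% of all genes tested. Its probe lies at chr1:36369494-36369553 on the + strand of rn4. The change was 0.30 without control array 3 and 0.40 without TCDD array 3. With normexp it was 0.29, but the SE shrank with it, from 0.62 to 0.24.

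Nmu encodes neuromedin U, a peptide first known for contracting the uterus and made in the anterior pituitary. It was at 0.86, 0.78, 0.15 and 0.18 on the control arrays and at 1.13, 0.95, 0.37 and 0.83 on the TCDD arrays. Both groups held high and low arrays, with control arrays 3 and 4 and TCDD array 3 at the low end. The means of 0.49 ± 0.38 (SD, n = 4) and 0.82 ± 0.32 (SD, n = 4) differed by 0.33 (SE 0.22, 95% confidence interval -0.17 to 0.83; limma, adjusted p = 0.66; exact two-sided permutation p = 0.20). A second probe, whose 60 bases span 6108 bases of the genome, gave 0.42 (SE 0.22, adjusted p = 0.56). The 2 probes differed by 3.43 to 3.79 on the 8 arrays, and both placed TCDD array 1 highest and control array 3 lowest. With array weights the change was 0.19, and without control array 3 it was 0.21.

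The promoter windows show what letters lie before the starts of these genes. RefSeq windows of the GRCr8 assembly were found for 8 of the 9 members, and the 250 bases before each start were searched on both strands for the estrogen response element GGTCANNNTGACC, its half-site GGTCA and the core GCGTG to which AhR binds. The full element was in 0 of the 8 windows, and in 0.0239% of all 33469. A half-site was in 4 of 8 (Esr2, Gal, Vip and Nmu), against 35.4% of all windows, and the AhR core in 2 of 8 (Esr2 and Nmu), against 25.9%. Nmu is printed because its window held the most matches of any member, 4 cores and 2 half-sites. Gal is printed as an example of a window with a half-site and no core, which Vip also had. Matches are in capitals, and in Nmu a half-site and 2 cores overlap in a single run of capitals.
Nmu: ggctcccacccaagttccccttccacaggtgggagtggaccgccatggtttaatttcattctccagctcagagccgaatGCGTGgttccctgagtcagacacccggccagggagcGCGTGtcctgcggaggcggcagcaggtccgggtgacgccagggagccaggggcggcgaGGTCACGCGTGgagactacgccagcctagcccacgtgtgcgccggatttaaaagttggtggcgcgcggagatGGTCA
Gal: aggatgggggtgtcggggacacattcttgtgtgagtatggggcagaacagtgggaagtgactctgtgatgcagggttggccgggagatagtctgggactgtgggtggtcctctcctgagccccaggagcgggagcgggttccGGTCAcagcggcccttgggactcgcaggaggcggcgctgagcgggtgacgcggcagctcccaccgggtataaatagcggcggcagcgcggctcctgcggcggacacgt
These are chr14:32198693-32198942 on the + strand (Nmu) and chr1:210084573-210084822 on the - strand (Gal) of GRCr8. A match is a run of letters and not a shown binding site, and elements outside the window were not searched.

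Galr1, a galanin receptor, was not well above background on any array with either of its 2 probes, at 2.37 to 6.38 scanner units. Cckbr, the receptor that binds both gastrin and cholecystokinin, gave a signal on a single array. Its probe at chr1:163166890-163166949 read 7.61, 2.90, 7.18 and 9.77 scanner units on the control arrays and 174, 2.41, 2.34 and 6.18 on the TCDD arrays. Only TCDD array 1 was well above background. The printed Cckbr probe was also highest on TCDD array 1, at 13.6 against 2.75 to 4.20 on the others, though not flagged as well above background there. Of the 56 values of the 7 probes of Esr2, Galr1 and Cckbr, that 1 was well above background.

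**Figure D2:**
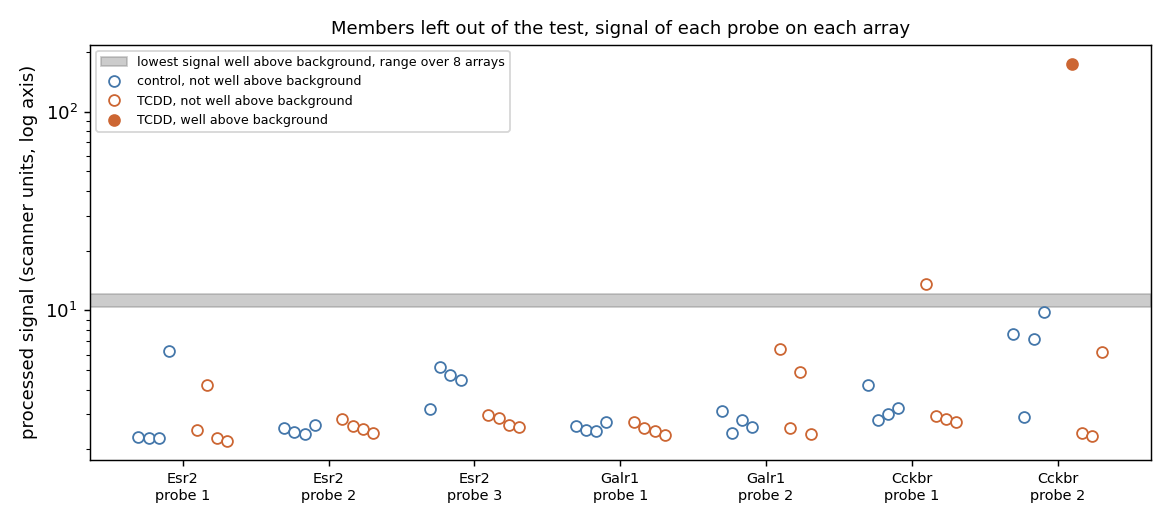
Processed signal in scanner units on a log axis for the 7 probes of Esr2, Galr1 and Cckbr, 1 point per array, with open points where the probe was not well above background. The grey band (10.4 to 12.1) spans the lowest signal well above background over the 8 arrays, and the single filled point is Cckbr on TCDD array 1 at 174.

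The partners of these peptides and receptors were examined next, as a list of 13 genes. Of these, 6 were well enough measured to test and 0 passed in either direction (limma), with a median log2 change of -0.0046 and a range from -0.48 to 0.43. At an unadjusted p under 0.05 there was 1 of 6, where 10.7% of all genes reached it. Gast, the gastrin gene and thus a ligand of CCKBR, had a mean of -2.59 ± 0.07 (SD, n = 4) against -2.38 ± 0.16 (SD, n = 4) with TCDD, a change of 0.21 (SE 0.09, adjusted p = 0.45). Cck, the gene of its other ligand cholecystokinin, went the other way, by -0.24 (SE 0.17, adjusted p = 0.67). Vipr2, a receptor of vasoactive intestinal peptide, differed by 0.24 (SE 0.13, adjusted p = 0.59), and Vipr1, another, by 0.43 (SE 0.27, adjusted p = 0.63). Galr2, the galanin receptor that could be tested, differed by -0.22 (SE 0.13, adjusted p = 0.59), and Galp, galanin-like peptide, by -0.48 (SE 0.28, adjusted p = 0.62). On the control arrays Galp ranged from -3.93 to -2.92 and on the TCDD arrays from -4.31 to -3.15. Leaving out 1 array moved Vipr2 to 0.11 (without control array 2), Galr2 to -0.14 (without control array 1) and Galp to -0.71 (without TCDD array 4). With normexp the changes were 0.10 for Gast, 0.15 for Vipr2, -0.10 for Galr2 and -0.23 for Galp. The posterior lobe and neural markers, relative to their mean over the 8 arrays, ranged from -0.57 to 0.54 in controls and from -0.39 to 0.07 after TCDD. Control array 4, lowest for these markers (-0.57), had the highest Galp (-2.92). TCDD array 2, next lowest for them (-0.39), had the lowest Galp (-4.31). The part of these markers in Galp was not tested. The neuromedin U receptors Nmur1 and Nmur2 and the peptide gene Adcyap1 were well above background on 0 arrays.

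Among 13 other estrogen-binding or related receptors and coregulators, 11 were tested and 0 passed in either direction (limma). At an unadjusted p under 0.05 there were 0 of 11, where 10.7% of all genes reached it. Their changes were small, from -0.14 to 0.11 with a median of -0.0032. Ncoa1, a coactivator of nuclear receptors, had a mean of 1.28 ± 0.13 (SD, n = 4) against 1.15 ± 0.05 (SD, n = 4) with TCDD, a change of -0.13 (SE 0.08, adjusted p = 0.59). Ncoa7, another coactivator, differed by -0.14 (SE 0.09), the corepressor gene Ncor1 by 0.08 (SE 0.09) and Pgrmc1, a membrane protein linked to progesterone, by 0.11 (SE 0.08). Ncor1 was at -0.03 when its probes were averaged and between 0.04 and 0.14 with 1 array left out. Pgrmc1 was at 0.06 without control array 4 and Ncoa7 at -0.09 without control array 1, and median centring gave 0.08 for Pgrmc1 and 0.04 for Ncor1. Esrrb and Esrrg, orphan receptors related to the estrogen receptors, were well above background on 0 arrays, while Esrra was on all 8 and differed by -0.0032 (SE 0.09).

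Of 20 other estrogen-responsive genes 18 were tested and 0 passed in either direction (limma), with a median log2 change of 0.03 and 10 above 0. Those at an unadjusted p under 0.05 numbered 2, or 2 of 18 where 10.7% of all genes reached it. S100g, which encodes the calcium-binding protein calbindin-D9k, was at 2.64, 2.07, 1.38 and 2.68 on the control arrays and 3.38, 2.69, 2.49 and 3.31 on the TCDD arrays. TCDD array 3 fell within the control range and TCDD array 2 (2.69) was level with the highest control (2.68), while TCDD arrays 1 and 4 lay above all controls. The change was 0.78 (SE 0.33, 95% confidence interval 0.03 to 1.53; limma, adjusted p = 0.45; exact two-sided permutation p = 0.11), and 0.51 without control array 3. Igf1, the growth factor, was at 1.41, 2.52, 2.77 and 1.90 on the control arrays and 2.71, 2.91, 3.11 and 2.72 on the TCDD arrays. Its change was 0.71 (SE 0.28; limma, adjusted p = 0.44; exact two-sided permutation p = 0.086), and control array 3 lay among the TCDD values. Without control array 1 it was 0.46. Ccnd1, a cyclin that drives entry into the cell cycle, differed by 0.23 (SE 0.12, adjusted p = 0.54) and Bmp4, a growth factor of the pituitary, by 0.43 (SE 0.25, adjusted p = 0.60). Bmp4, dim at a control mean of -5.09, was at 0.04 with normexp (SE 0.07), 0.23 with array weights and 0.18 without control array 4. Oxtr, the oxytocin receptor, was well above background on 0 arrays.

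**Figure D3:**
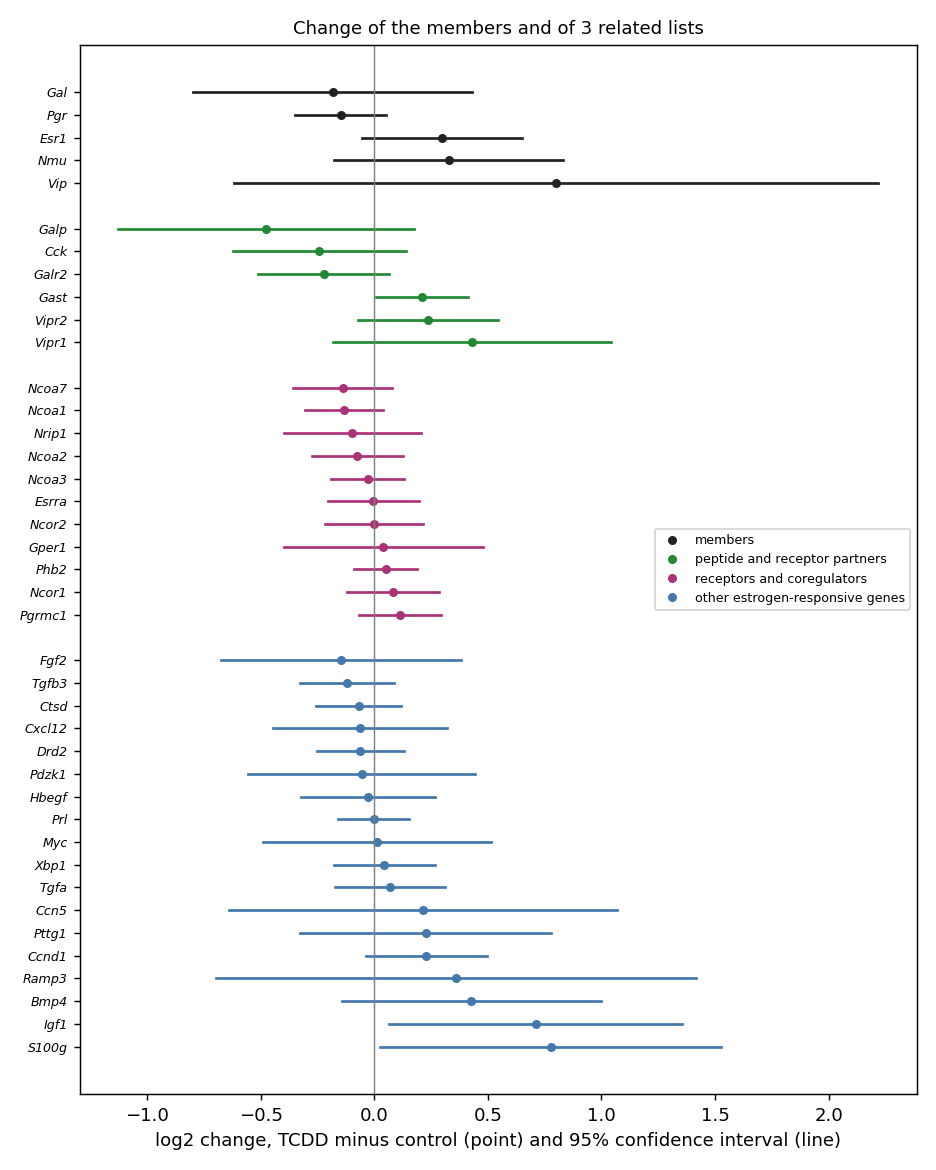
Log2 change (TCDD minus control, points) with its 95% confidence interval (lines) for the 5 tested members and the tested genes of the 3 related lists, 8 arrays. All 5 member intervals include 0, and Vip has the widest of them, from -0.62 to 2.22, while most receptors and coregulators lie within narrow intervals around 0.

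Genes whose values followed a member across arrays were found by Pearson correlation over the 8 arrays after each group's mean was subtracted, among genes with a symbol that were well above background on all arrays (11749 or 11750 compared). For Esr1 the 3 closest were Me1 (r = 0.99), Zfp689 (0.98) and Mex3b (0.97). Those of Pgr were Vopp1 (0.98), Zfp748 (0.98) and Tbc1d25 (0.96), and those of Gal were Ing1 (0.98), Comtd1 (0.98) and Praf2 (0.98). These are the extremes of a long list over few arrays, all values of an array share 1 scaling, and they are given as a description only.

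The tested members did not pass under any alternative run. Over 18 to 20 alternatives for each member, the log2 change ranged from 0.04 to 0.37 for Esr1, from -0.19 to -0.08 for Pgr, from -0.33 to 0.09 for Gal, from 0.29 to 1.20 for Vip and from 0.19 to 0.48 for Nmu. The low ends for Esr1 and Vip came from normexp, whose offset shrinks the changes of dim probes. Adjusted p-values by limma stayed at 0.48 or above throughout. Gal was the member that lay on both sides of 0.

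**Figure D4:**
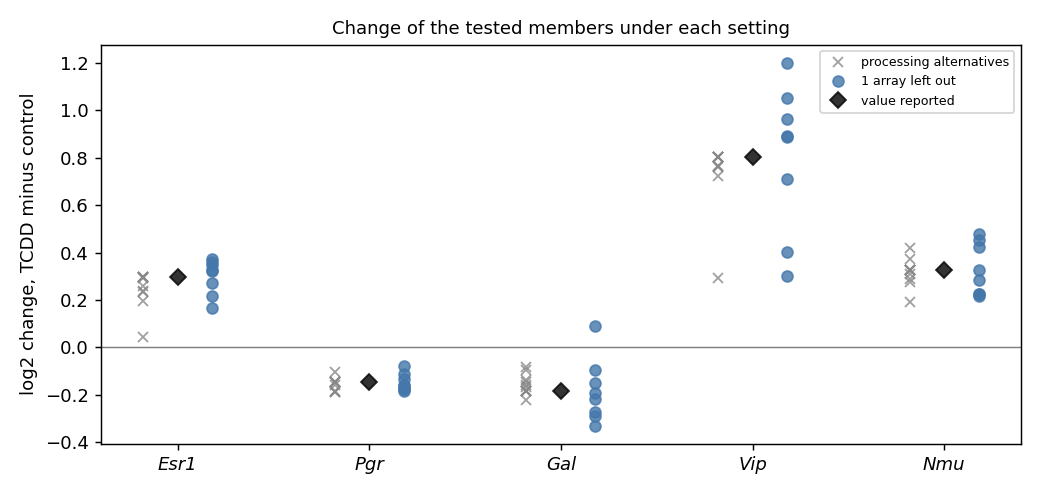
Log2 change (TCDD minus control) of the 5 tested members as reported (diamonds), under each processing alternative (crosses) and with 1 array left out (circles). Vip moves most, between 0.29 and 1.20, and a single circle for Gal lies above 0, at 0.09 without TCDD array 4.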

How the data were processed

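Agilent Feature Extraction 10.7.1.1 quantified each single-colour array, per the file headers. The deposited scanner files hold linear intensities, background-subtracted and detrended within the array, and other flags such as outlier and well above background. The processed intensity was divided by the array's 75th percentile over non-control spots and put on the log2 scale. Outlier spots were left out, a probe's spots averaged, and a probe kept if well above background, by at least as many of its spots as not, on 4 or more arrays. A gene's brightest kept probe was used, with names updated through RefSeq. Groups were compared with limma 3.58.1 in R 4.3.3, two-sided, over 17350 genes, beside exact permutation tests over 70 assignments, the smallest p being 0.029. The labels give 4 samples per group and name no animals, so a p-value reflects only how far those samples differ. On simulated data with 17350 genes the fit called 60% of 50 genes changed 1.5-fold and 86% of 50 changed 2-fold. It also called 13 of 17150 unchanged genes (0.0758%). The changed genes were drawn at random, with independent noise and no slide effect. All tested members but Pgr had standard errors above the median over all genes (0.10). These shares therefore do not tell how often a change in a member would be called. The authors' deposited table of intensities, with 1 shared distribution (median 56.3 in each column) and ranks that follow the scanner files, served as an alternative; its further scaling is not given in the sources used here. Alternatives also covered normalization, background, filter, probe summary, variance model, array weights and left-out arrays. The second probe of Gal and Nmu was added after seeing the data. All members were described; of each other list, the 4 genes with the smallest unadjusted p were named, with other genes named after their values were seen. Members and lists were chosen with earlier results of these data known.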

Additional observations from a re-analysis of the deposited data

Results flagged for a closer look

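Within each group of 4 arrays, the gap from the highest or lowest array to its neighbour was divided by the group's range, for the 14 member probes and 12 list genes. Of 52 such groups 6 had a ratio above 0.829, where chance gives about 5%. Pgr was far lowest on TCDD array 1 (0.890). Cckbr by its printed probe was far highest on TCDD array 1 (0.866), though not well above background there or on any other array. The other 4 were likewise signals not well above background on any array: the Esr2 probes on control array 4 (0.932 and 0.931) and control array 1 (0.850), and Galr1 on control array 4 (0.884).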

How the results depend on the processing

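No member and no gene of the 3 other lists passed under any alternative run, and 1 member changed sign: Gal, at 0.088 without TCDD replicate 4, its range with 1 array left out being -0.33 to 0.088. Of the list genes named, Ncor1 turned to -0.033 with probes averaged. The count of all genes that passed, 11, was 0 with normexp (limma, 1922 at an unadjusted p under 0.05), 1 with quantile normalization alone (0 higher, 1 lower), 1 with the deposited table, 4 with a variance trend and robust fit, 28 with array weights, and 0 to 5 with any 1 array left out. It was 0 without control replicate 3 (limma, 1553 at an unadjusted p under 0.05) and without TCDD replicate 1 (1630). With the replicate block it was 0 (limma, 1513 at an unadjusted p under 0.05), and no member passed. With that block the SE fell from 0.22 to 0.10 for Nmu and from 0.33 to 0.11 for S100g, and rose for Esr1, Pgr, Gal and Vip. Adjusted p-values (limma) were 0.51 for Nmu and 0.34 for S100g. The replicate number is also the position of the array on its slide. The replicate numbers are not shown to pair the samples. Deviations of same-numbered samples correlated between -0.10 and -0.02, and 0 of 4 control samples correlated best with their own number. Signal limits Esr1, near background, Esr2 and Galr1, not well above it on any array, and Cckbr, well above it on 1 array. The slide could not be fitted as a block because each holds 1 group.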

Other observations

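The standard error of the change was larger than that of 99.2% of tested genes for Vip, 91.5% for Gal and 86.9% for Nmu, while Pgr, at 38.5%, and Esr1, at 74.2%, were lower in that order. For Gal it was 0.27 and fell to 0.15 without TCDD array 4. In controls alone the scanner signal of Vip spanned a ratio of 5.18 from the lowest to the highest array, that of Nmu 1.86, that of Esr1 1.78, that of Gal 1.44 and that of Pgr 1.27. Vip was read by a single spot, and its lowest value, on control array 3, was 14.4 scanner units, where the lowest signal well above background was 11.1.

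The Cckbr signal on TCDD array 1 was 174 scanner units, and the next brightest array, control array 4, was not well above background at 9.77, so no measured ratio is given. On each array, between 23 and 52 of the 30367 probes had a scaled signal more than 8 times that on all 7 other arrays, whether or not those were above background, with 52 on TCDD array 1. That count was made after the value of Cckbr was seen.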
